A study of Mus musculus with 116 samples.

Results

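The genes described here encode the constitutive proteasome, the protease that degrades ubiquitin-tagged proteins, and were followed through RNA libraries of 1 to 10 cultured mouse cells. Members were all gene symbols that begin with Psma, Psmb, Psmc, Psmd or Psme and a digit. The inducible catalytic genes Psmb8, Psmb9 and Psmb10 (3 genes) were left out, as were pseudogene symbols ending in -ps, of which the files held 0. The rule found 43 of 40202 gene symbols. They comprised 7 genes of the alpha ring, 7 of the beta ring, 6 of the ATPase ring and 11 non-ATPase genes of the 19S cap. A further 3 encode assembly chaperones of the cap (Psmd5, Psmd9, Psmd10), 4 encode activators (Psme1 to Psme4), and 1 is a copy of an activator gene (Psme2b). Another 2 encode tissue-specific core subunits (Psma8, Psmb11). The names of Psmc3ip and Psme3ip1 meet the rule, but these 2 genes encode partner proteins and not subunits.

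The libraries came from nanoSPLITS, in which a nanolitre droplet of cell lysate is split between RNA sequencing and protein measurement, and only the RNA counts were analysed. C10 is a mouse line that the labels name as alveolar type II epithelial cells, and SVEC is a mouse line that they name as endothelial cells. An input series of C10 held 8 libraries of 1 cell, 6 of 3 cells and 6 of 10 cells, and a set of single cells held 48 libraries of C10 and 48 of SVEC. All groups were kept in standard culture with no treatment, the strain and age behind the lines are not given in the labels, and no library is said to come from a separate culture, so p-values measure only the spread between these libraries.

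The proteasome is built around a barrel, the 20S core, made of outer alpha rings that gate the entrance and inner beta rings that hold the catalytic sites. The 19S cap recognises ubiquitin chains through its non-ATPase subunits, removes them, and unfolds the substrate with a ring of ATPases. Activators can replace the cap: Psme1 and Psme2 encode the PA28 alpha and beta subunits, which are induced by interferon gamma and act in antigen processing, Psme3 encodes the nuclear PA28 gamma and Psme4 encodes PA200. Core and cap genes are switched on together by the transcription factor Nfe2l1 when proteasome activity falls, through antioxidant response elements in their promoters.

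RefSeq promoter windows of assembly GRCm38.p6, which run from 250 bases before to 50 bases after the gene start, were listed for 36 of the 43 members. Printed here are the windows of Psme1 and Psmb3, whose RNA levels differed between the cell lines in opposite directions, and that of Psme2, the partner of Psme1, for comparison. The last 20 bases of each window are omitted. Capitals mark matches, on either strand, to the core of the interferon-stimulated response element, GAAA followed by any 2 bases and a second GAAA.
Psme1, chr14:55578244-55578523, plus strand: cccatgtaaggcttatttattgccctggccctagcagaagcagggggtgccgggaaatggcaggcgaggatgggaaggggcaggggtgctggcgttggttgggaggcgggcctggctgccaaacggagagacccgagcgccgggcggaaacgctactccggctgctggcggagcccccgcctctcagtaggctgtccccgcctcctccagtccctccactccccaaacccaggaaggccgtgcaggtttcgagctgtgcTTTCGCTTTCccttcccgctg
Psme2, chr14:55591072-55591351, minus strand: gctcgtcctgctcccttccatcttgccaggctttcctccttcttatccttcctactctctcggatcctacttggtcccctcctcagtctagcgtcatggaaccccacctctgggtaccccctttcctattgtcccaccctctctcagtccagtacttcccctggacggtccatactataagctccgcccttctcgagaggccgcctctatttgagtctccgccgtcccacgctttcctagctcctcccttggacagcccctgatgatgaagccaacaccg
Psmb3, chr11:97703184-97703463, plus strand: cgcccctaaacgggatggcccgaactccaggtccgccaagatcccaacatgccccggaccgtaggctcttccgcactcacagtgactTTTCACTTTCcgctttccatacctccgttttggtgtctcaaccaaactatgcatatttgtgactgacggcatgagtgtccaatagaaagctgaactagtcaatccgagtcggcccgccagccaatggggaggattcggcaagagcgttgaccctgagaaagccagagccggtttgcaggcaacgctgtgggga

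The match in Psme1 lay at bases 260 to 269 of the window and that in Psmb3 at bases 88 to 97, both read from the opposite strand, while the Psme2 window held none. Matches to this core were found in 4 of 36 member windows (11.1%; Psmb3, Psmd4, Psmd9 and Psme1) and in 3.49% of all 27025 windows. The antioxidant response element core, TGACNNNGC on either strand, was present in 6 of 36 member windows (16.7%; Psmb5, Psmb6, Psmc6, Psmd12, Psmd9 and Psme4) against 12.5% of all windows. The gamma-activated site, TTCNNNGAA, was present in 1 member window (2.78%; Psmd2) against 8.47%. CCAAT was present in 14 member windows (38.9%) against 37.9%, and the GC box GGGCGG in 21 (58.3%) against 35.9%, each counted on both strands. These motif matches describe letters in a window and no binding was measured. Matches of TTCNNNGAA and of the interferon-stimulated core can share bases.

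The total count over genes ranged from 430798 to 15385625 in the 1-cell libraries, from 6889508 to 14018116 in the 3-cell libraries and from 8313314 to 14778988 in the 10-cell libraries. Among the single cells, 2 C10 libraries held fewer than 1000 counts and were left out, and the other 46 held 83188 to 5911755 counts, against 5122 to 2831907 in the 48 SVEC libraries. Replicate 1 of the 1-cell libraries stood apart, with 64.6% of its counts on mitochondrial genes and counts on 538 genes. Replicates 24 of C10 and of SVEC single cells carried 30.9% and 27.5% mitochondrial counts. The labelled cell types were only weakly marked: in SVEC single cells 0 of 12 endothelial markers were present in at least 50% of libraries and 6 (Kdr, Tie1, Vwf, Emcn, Esam, Cldn5) were at 0, and in C10 single cells 1 of 13 alveolar and epithelial markers (Cdh1) was present in at least 50% of libraries and 7 were at 0, including Sftpc and the other 3 surfactant protein genes of the list. The mesenchymal genes Col1a1, Col3a1, Vim and Acta2 were present in at least 50% of libraries of both lines. The summed level of the 7 mesenchymal markers ranged from 1315 to 11246 CPM in C10 and from 481 to 8522 CPM in SVEC.

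Proteasome genes took a small share of the RNA in every group. The members together held 1.22 ± 0.326% of gene counts in 1-cell libraries (SD, n = 8), 1.20 ± 0.183% in 3-cell libraries (n = 6) and 1.12 ± 0.116% in 10-cell libraries (n = 6). In the single-cell set the share was 1.56 ± 0.239% in C10 (n = 46, lowest 0.595%, median 1.58%, highest 1.99%) and 1.49 ± 0.352% in SVEC (n = 48, lowest 0.448%, median 1.56%, highest 2.21%). The ranges of C10 and SVEC single cells overlapped, and the difference of 0.0708 percentage points between their means was below the spread within either group. The mean of C10 single cells was above the highest 3-cell library (1.44%) and the highest 10-cell library (1.29%). That difference between the sets was not tested. The lowest shares of both lines were in the replicates numbered 24, the libraries with the high mitochondrial shares, and the part of RNA quality in them was not tested.

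By role, the alpha ring held 0.448 ± 0.0979% of counts in C10 and 0.421 ± 0.135% in SVEC single cells, and the beta ring held 0.397 ± 0.0830% and 0.349 ± 0.122%. The ATPase ring held 0.276 ± 0.0777% in C10 and 0.275 ± 0.104% in SVEC, and the non-ATPase genes of the cap held 0.330 ± 0.0903% and 0.286 ± 0.141% (SD, n = 46 and 48). These 4 assemblies had close means in both lines. The activators summed had the higher mean in SVEC, with 0.0538 ± 0.0261% in C10 and 0.0990 ± 0.0627% in SVEC. That sum is over 4 genes, of which Psme3 had the higher mean in C10.

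**Figure D1:**
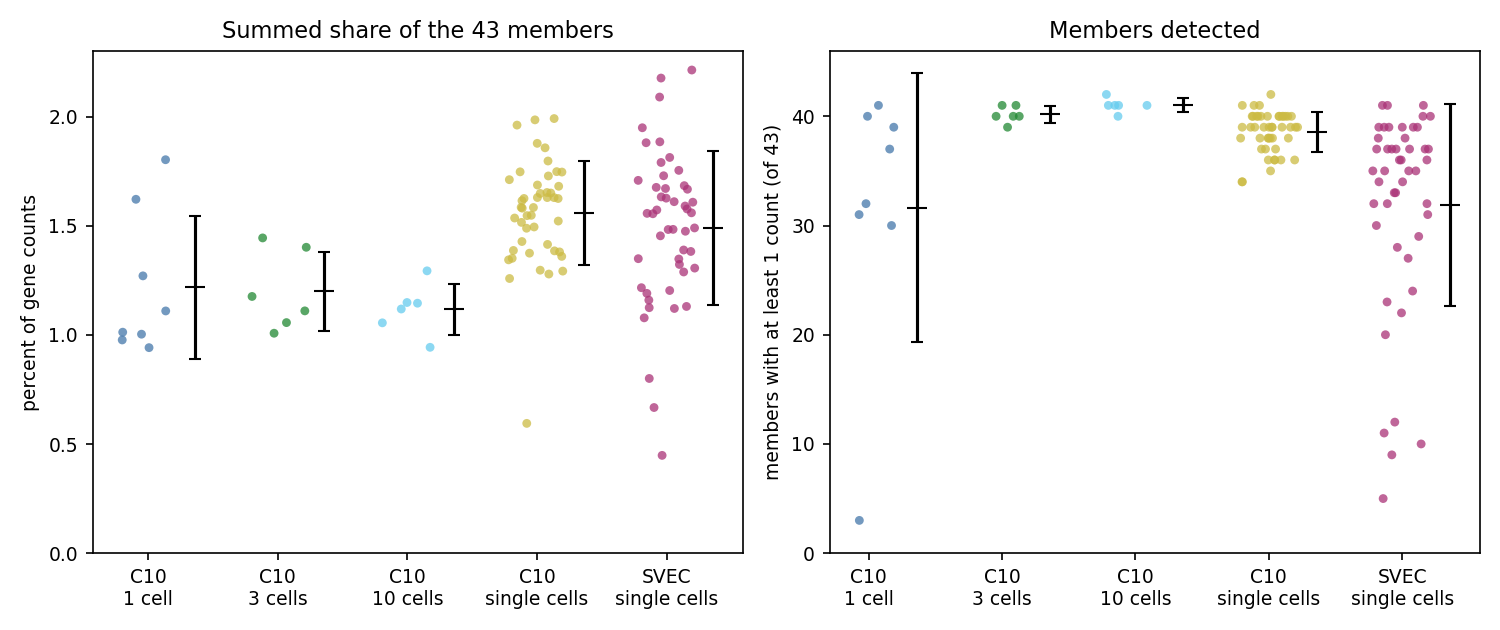
The left panel plots the percent of gene counts on the 43 members and the right panel the number of members with at least 1 count, with 1 point a library and the mean and SD beside each group. Shares lie mostly between 1 and 2%, and detection falls to 3 members in 1 library of 1 cell and to 5 in 1 SVEC library.

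Nearly all members were seen in libraries of several cells, and fewer in SVEC single cells. Members detected per library numbered 40.2 ± 0.753 with 3 cells and 41 ± 0.632 with 10 cells (SD, n = 6 each), and 31.6 ± 12.3 with 1 cell (n = 8, lowest 3, median 34.5, highest 41). Without replicate 1 the 1-cell value was 35.7 ± 4.61 (n = 7). In the single-cell set 38.6 ± 1.86 members were detected in C10 (n = 46) and 31.9 ± 9.26 in SVEC (n = 48). When counts were drawn down to 100000 per library, 37.6 ± 2.51 members remained detected in C10 (n = 45, 1 library left out as too shallow) and 33.6 ± 6.27 in SVEC (n = 42, 6 left out). The order of the lines was thus the same at equal depth. Genes of the whole table detected per library, as deposited, also ran lower in SVEC, from 786 to 7844 against 3271 to 9355 in C10. Whether members differ from other genes in this was not tested. Present in every library were 37 members with 3 cells, 39 with 10 cells, 22 in C10 single cells and 0 in SVEC single cells, and 2 with 1 cell (Psma7 and Psmd4). Without replicate 1, 19 members were present in every 1-cell library.

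The tissue-specific core genes were almost silent. Psma8, a testis alpha subunit that replaces Psma7 in germ cells, had counts in 5 of 114 libraries, with 4 counts over 2 C10 single cells and none in SVEC. Psmb11, the thymus beta subunit, had 0 counts in all 114 libraries, where 3 counts per library would correspond to a mean of 3.32 CPM in C10 and 34.3 CPM in SVEC single cells. CPM is counts scaled to a library total of 1000000, and intervals and floors cover counting error only, since PCR copies were counted as reads.

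Levels of different genes were compared per kilobase of exon. The lengths are unions of all annotated exons of a gene, so orders and fold spans between genes depend on them. Which transcripts were present was not tested. The order of members was largely the same in both lines, with a Spearman rho of 0.936 across 41 members between C10 and SVEC single cells, whose points share gene lengths and base composition. The 3 highest and 3 lowest were taken by the mean of both lines, among members detected in at least 25% of the cells of a line. Psmb2, a non-catalytic beta subunit, ranked highest with means of 528 CPM per kilobase in C10 and 588 in SVEC. Psmb6, the caspase-like catalytic subunit, followed in C10 at 433 (409 in SVEC), and Psma6, an alpha subunit, stood at 361 in C10 and 532 in SVEC. The lowest by this mean were Psmd3, a scaffold subunit of the cap, at 20.4 and 9.24 CPM per kilobase, Psme3 at 21.4 and 10.6, and Psme4 at 3.75 and 6.90. In C10 alone, Psmd9 (15.2), Psmc3ip (18.1), Psme2b (19.1) and Psmd5 (20.3) were also below Psmd3. The 31 core and cap subunits enter a complex of fixed composition, and their highest and lowest members differed 25.8-fold per length in C10 and 63.6-fold in SVEC.

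The catalytic genes of the beta ring differed in level. Per length, Psmb6 exceeded Psmb5, the chymotrypsin-like subunit (215 CPM per kilobase in C10, 256 in SVEC), and Psmb5 exceeded Psmb7, the trypsin-like subunit (74.8 and 46.1), which was the lowest of the ring in both lines. The exon unions were 899 bases for Psmb5 and 3421 for Psmb7. Without division by length, the median CPM of Psmb7 was above that of Psmb5 in C10 and below it in SVEC. The ATPase ring was the most even assembly, with 2.00-fold between its highest and lowest member in C10 and 1.54-fold in SVEC. The alpha ring spanned 2.96-fold and 5.38-fold and the non-ATPase genes 9.81-fold and 21.4-fold.

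**Figure D2:**
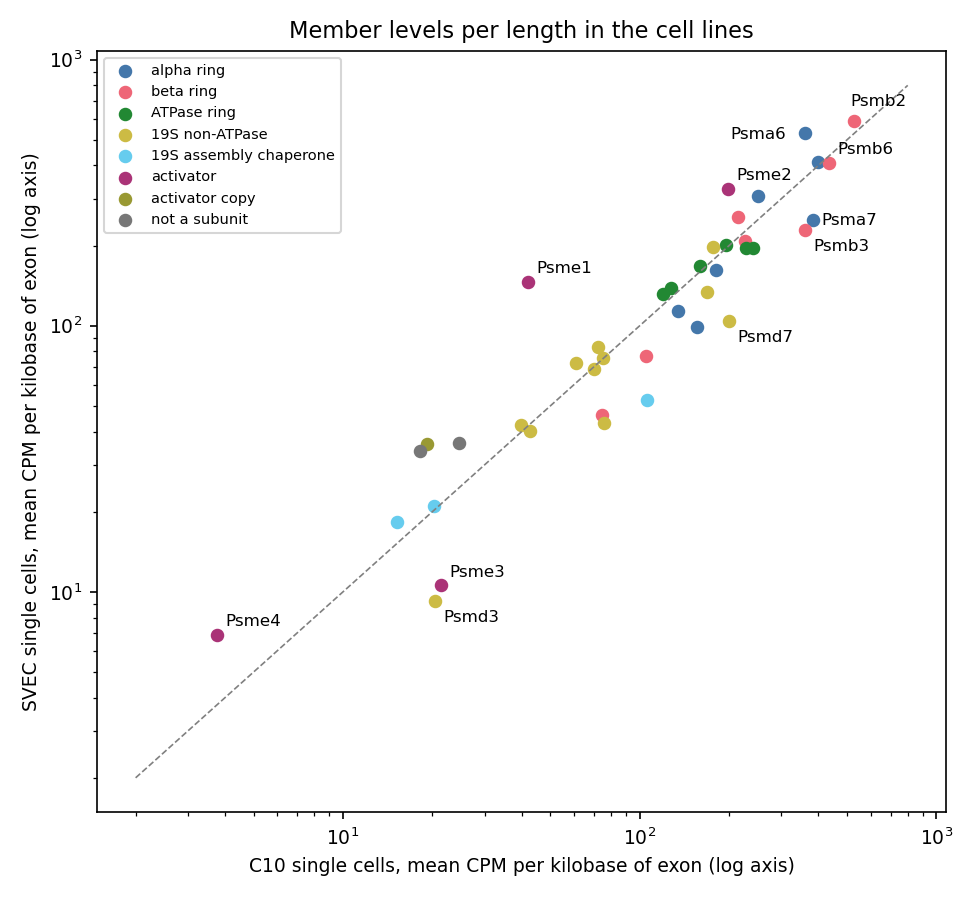
Each point is 1 member, by its mean CPM per kilobase of exon in C10 single cells (horizontal, log axis) and SVEC single cells (vertical, log axis), coloured by role, with a dashed line of equal values. Most members lie near the line, Psme1 lies above it at 42.0 in C10 and 146 in SVEC, and Psmd3, Psme3 and Psmd7 lie below it.

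Between the cell lines, most proteasome genes were not distinguished. Of 41 members tested, 6 passed an adjusted p of 0.05 in edgeR (14.6%), against a background of 18.9% (1754 of 9303 genes), so the share of members called was near that of all genes. Higher in C10 were Psmb3, Psma7, Psmd7, Psmd11 and Psmb7 (5 of 41, background 14.4%), and higher in SVEC was Psme1 (1 of 41, background 4.48%). Psma8 and Psmb11 did not pass the detection filter of 25% of libraries in a group. The median log2 fold change was 0.32 over members and 0.35 over all genes, and the latter was 0.00 when libraries were scaled by their totals alone, where the median over members was -0.05, so directions near 0 depend on the scaling. In that scaling 3 members were called (background 17.1%), 2 of them higher in C10 (background 9.89%). With the detection rate of each library as a covariate 2 members were called, Psmb3 and Psme1 (background 14.4%).

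**Figure D3:**
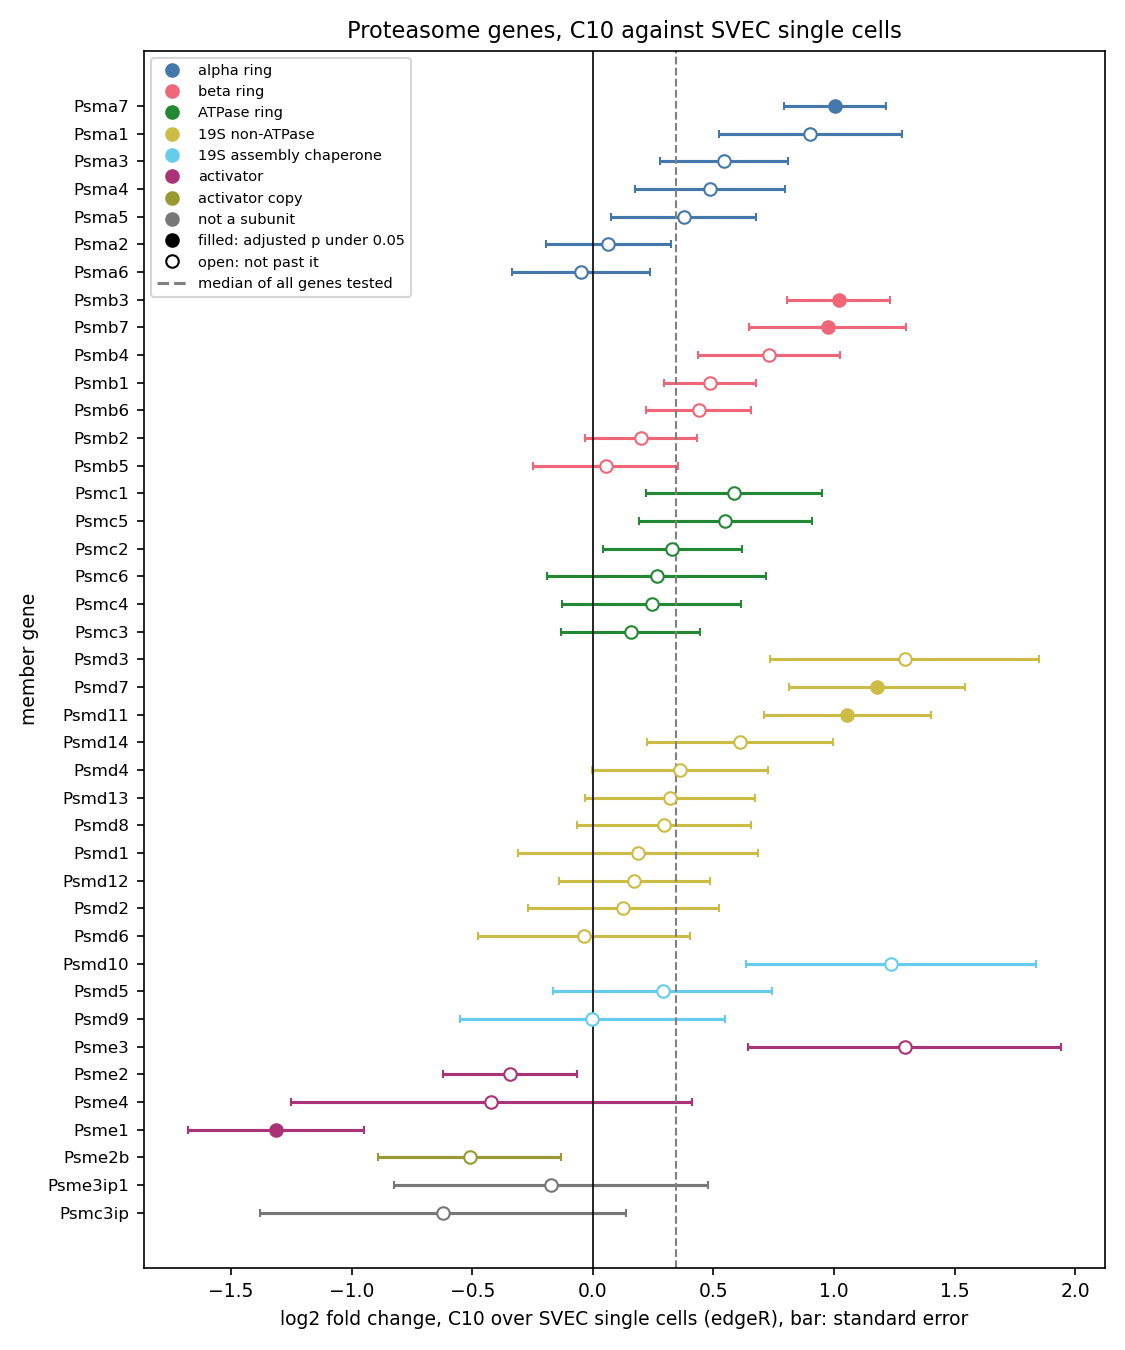
Log2 fold change (C10 over SVEC single cells, edgeR) of the 41 members tested, with bars of 1 standard error, grouped and coloured by role. Filled points mark the 6 members past an adjusted p of 0.05, and the dashed line is the median of all genes tested, 0.35.

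In the beta ring, 2 of 7 members were called (background 18.9%). Psmb3, a structural beta subunit, was at 339 CPM in the lowest, 788 in the median and 1612 in the highest C10 library, and at 0, 495 and 1633 CPM in SVEC. The ranges overlapped, and the SVEC libraries extended lower. Its log2 fold change was 1.02 (SE 0.21, edgeR adjusted p = 1.0e-04), or 0.67 above the median of all genes. Psmb7 was at 26.5, 231 and 847 CPM in C10 and at 0, 146 and 368 CPM in SVEC, where 41 of 48 libraries had counts. The log2 fold change of Psmb7 was 0.97 (SE 0.32, edgeR adjusted p = 0.0220), and it was not called with library totals alone (adjusted p = 0.139). The other catalytic genes were not called. Psmb5 was at 39.9, 171 and 510 CPM in C10 and 0, 230 and 596 CPM in SVEC, with a log2 fold change of 0.05 (SE 0.30, edgeR adjusted p = 0.938). Psmb6 was at 164, 721 and 1946 CPM in C10 and 0, 728 and 2124 CPM in SVEC, with a log2 fold change of 0.44 (SE 0.22, edgeR adjusted p = 0.159). Psmb6 was called in 4 of 12 alternatives, with a lowest adjusted p of 0.00690 in libraries with at least 100000 counts, and Psmb7 in 9 of 12. Differences between the catalytic genes' changes were not tested.

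In the alpha ring, 1 of 7 members was called (background 18.9%). Psma7, an alpha subunit of the outer ring, was at 106 CPM in the lowest, 1138 in the median and 1927 in the highest C10 library, and at 0, 715 and 1941 CPM in SVEC. Its log2 fold change was 1.00 (SE 0.21, edgeR adjusted p = 0.000112), and with the detection covariate it was 0.71 (adjusted p = 0.0636). The other 6 alpha genes had log2 fold changes of -0.05 (Psma6) to 0.90 (Psma1, SE 0.38, edgeR adjusted p = 0.0862).

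Of the ATPase genes 0 of 6 were called by edgeR (background 18.9%), with log2 fold changes of 0.16 (Psmc3) to 0.58 (Psmc1). A list of 6 genes is too short to set 0 calls apart from that share. The evenness of these 6 unfoldases per length, given above, is a separate description. Of the 11 non-ATPase genes of the cap, 2 were called (background 18.9%). Psmd7, the partner subunit of the deubiquitinase, was at 7.92, 415 and 938 CPM in C10, with counts in 46 of 46 libraries, and at 0, 183 and 831 CPM in SVEC, with counts in 37 of 48. Its log2 fold change was 1.18 (SE 0.36, edgeR adjusted p = 0.0121). Psmd11, a scaffold subunit of the cap's lid, was at 3.52, 508 and 1129 CPM in C10 and at 0, 253 and 1015 CPM in SVEC, with counts in 40 of 48 libraries. Its log2 fold change was 1.05 (SE 0.35, edgeR adjusted p = 0.0194). Both genes lost the call with library totals alone (adjusted p = 0.0598 for Psmd7 and 0.0913 for Psmd11) and with the detection covariate (0.564 and 0.660). Psmd3 had the largest log2 fold change of the cap subunits, 1.29 (SE 0.56, edgeR adjusted p = 0.0958), and Psmd14, the deubiquitinase itself, 0.61 (SE 0.38, adjusted p = 0.300). The 3 assembly chaperones were not called (background 18.9%), with 1.24 for Psmd10 (SE 0.60, edgeR adjusted p = 0.151), 0.29 for Psmd5 and 0.00 for Psmd9.

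Psme1, the PA28 alpha subunit, was the single member called as higher in SVEC and had the largest change in size of the 6 called. It was at 0 CPM in the lowest, 83.9 in the median and 288 in the highest C10 library, and at 0, 254 and 1968 CPM in SVEC. Counts were present in 42 of 46 C10 and 44 of 48 SVEC libraries, whereas 0 members were present in every SVEC library. Its log2 fold change, C10 over SVEC, was -1.31 (SE 0.37, edgeR adjusted p = 0.00465), or -1.66 relative to the median of all genes, and it was called in 12 of 12 alternatives. As a share of the members' own counts, which does not depend on the scaling, the median of Psme1 was 0.538% in C10 and 1.51% in SVEC. Psme1 overlaps Emc9 in the annotation, and whether counting used strand is not given in the sources used here.

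Psme2, its PA28 beta partner, was at 95.0, 324 and 1132 CPM in C10 and at 0, 541 and 1952 CPM in SVEC, and had a log2 fold change of -0.34 (SE 0.28, edgeR adjusted p = 0.448). With the filter of 90% of a group's libraries Psme2 was called as higher in SVEC (-0.69, edgeR adjusted p = 0.0380), and with limma on log2(CPM + 1) its sign was positive, 0.16 (adjusted p = 0.810). Whether Psme1 and Psme2 differ in their change was not tested. Psme3 was at 0, 50.5 and 234 CPM in C10 and 0, 0 and 277 CPM in SVEC, with counts in 40 of 46 and 17 of 48 libraries and a log2 fold change of 1.29 (SE 0.65, edgeR adjusted p = 0.167). Psme4 was detected in 24 of 46 C10 and 12 of 48 SVEC libraries, with highest values of 269 and 1129 CPM and a log2 fold change of -0.42 (SE 0.83, edgeR adjusted p = 0.614). Psme3 passed the threshold with DESeq2 (adjusted p = 0.0452) and with limma (adjusted p = 0.000121), and Psme4 was not called in any of 11 alternatives.

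**Figure D4:**
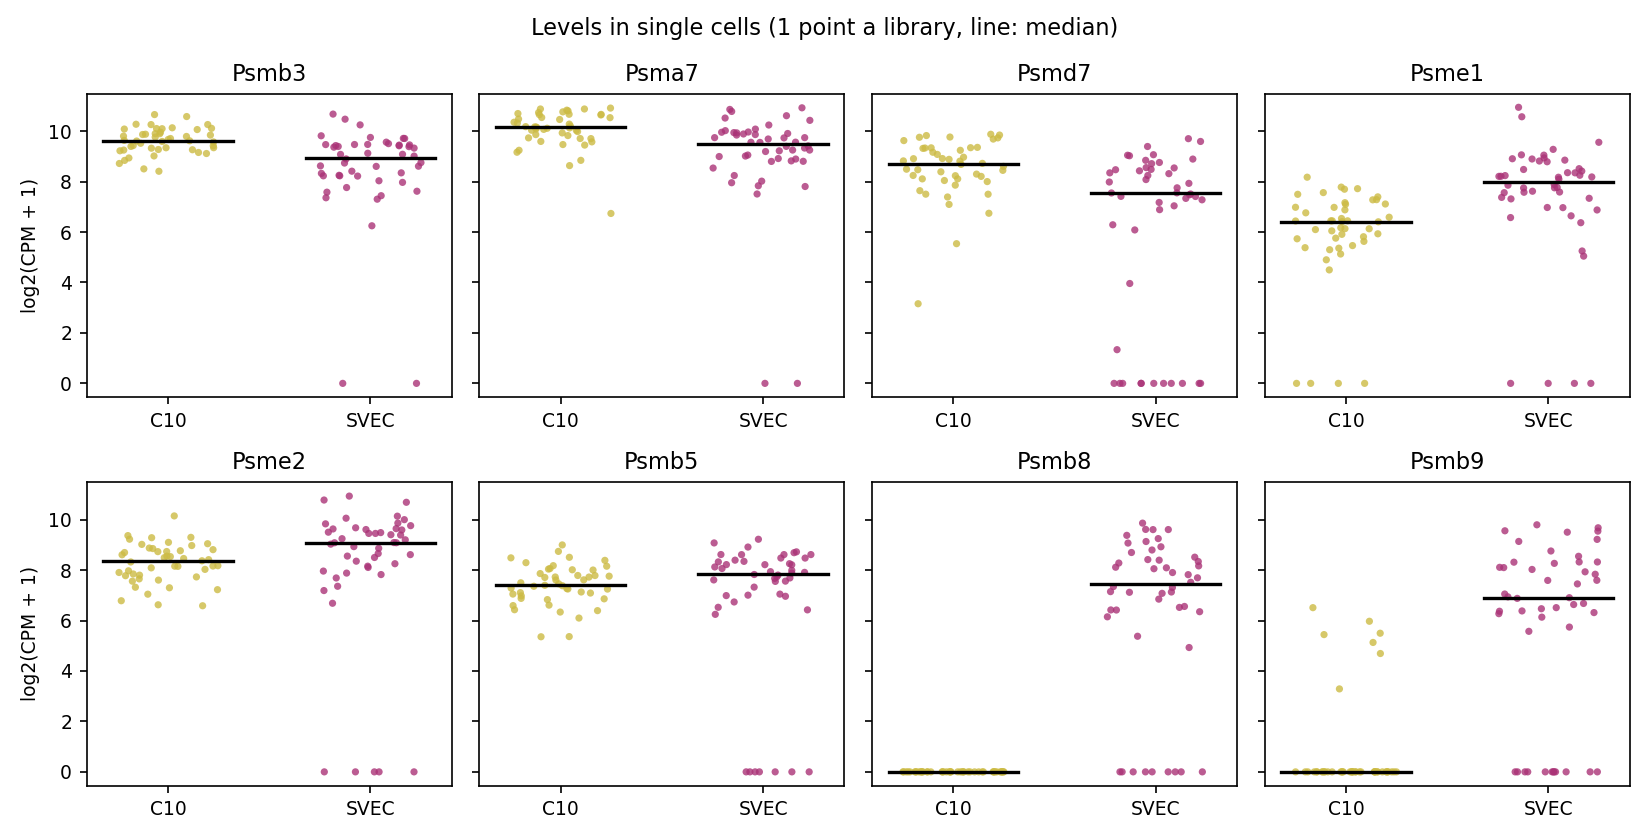
Levels of 6 members and of the inducible genes Psmb8 and Psmb9 in single cells, as log2(CPM + 1), with 1 point a library and a line at the median. Psmb3, Psma7 and Psmd7 have higher medians in C10, Psme1 and Psme2 in SVEC, and Psmb8 is at 0 in all 46 C10 libraries.

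Psme2b is a near-identical copy of Psme2, so the split of reads between them is uncertain. Its summed counts equalled 4.98%, 4.91% and 5.56% of those of Psme2 in the 1-, 3- and 10-cell libraries and 4.23% and 4.98% in C10 and SVEC single cells, and it was found in 0 libraries that lacked Psme2. Across libraries the log2(CPM + 1) values of the pair had a Pearson r of 0.87 in C10 (n = 46) and 0.80 in SVEC (n = 48), the highest of any pair of members in both lines. In single libraries with Psme2 the ratio ranged from 2.39% to 15.4% in C10 single cells and from 0% to 10% in SVEC, so it was close between group sums and wider between cells.

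Of the inducible subunits that replace catalytic members, Psmb8 and Psmb9 had larger changes between the lines than any member. Psmb8, which replaces Psmb5 in the immunoproteasome, had 0 counts in all 46 C10 single cells and in all C10 input libraries, and was detected in 39 of 48 SVEC cells at a median of 172 and a highest of 928 CPM. Against a floor of 3 counts per C10 library, mean 3.32 CPM, the SVEC mean of 253 CPM was at least 76.3-fold higher. Psmb9, which replaces Psmb6, was detected in 7 of 46 C10 and 36 of 48 SVEC cells, at means of 6.65 and 215 CPM and a log2 fold change of -4.50 (SE 0.79, edgeR adjusted p = 3.09e-06). Psmb10, which replaces Psmb7, was detected in 38 of 46 and 22 of 48 cells, at means of 62.5 and 27.0 CPM and a log2 fold change of 1.49 (SE 0.61, edgeR adjusted p = 0.0773). SVEC cells with Psmb8 also held its constitutive counterpart: 39 of 48 had both, 2 had Psmb5 alone, and 0 had Psmb8 alone.

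A wider list of 29 proteasome partners present in the files, the 3 inducible subunits included, gave 6 calls of 29 (20.7%, background 18.9%). Of these, 4 were higher in C10 (background 14.4%) and 2 higher in SVEC (background 4.48%). The 2 were Psmb8 and Psmb9, which passed the detection filter through SVEC alone. Sem1, a small cap subunit outside the symbol rule, was at means of 1106 and 560 CPM in C10 and SVEC, with a log2 fold change of 1.37 (SE 0.24, edgeR adjusted p = 3.70e-06). Nfe2l1, the transcription factor of proteasome genes, was at 90.3 and 34.3 CPM with a log2 fold change of 1.81 (SE 0.58, edgeR adjusted p = 0.0172). Pomp, the chaperone of core assembly, had a log2 fold change of 0.71 (SE 0.25, edgeR adjusted p = 0.0310) and Adrm1, a ubiquitin receptor of the cap, 1.13 (SE 0.41, adjusted p = 0.0403). Of these 4, Sem1 remained past the threshold with library totals alone, and the adjusted p there was 0.0786 for Nfe2l1, 0.605 for Pomp and 0.176 for Adrm1. The other 23 genes of the list did not pass, among them Psmg1 to Psmg4 of core assembly, the deubiquitinases Usp14 and Uchl5 and the segregase Vcp.

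Depth and detection moved with the cell line, and the calls are given with the detection covariate above and by depth below. The C10 libraries were deeper and held more members, as given above, and no batch is named in the labels, so line and batch cannot be told apart. The libraries that carried over 25% mitochondrial counts were replicates 24 of both lines. Without them 12 members were called by edgeR (background 22.5%), 11 of them higher in C10 (background 18.9%). Without the C10 library alone 8 were called (background 19.1%), and without the SVEC library alone 7 (background 19.5%). By other settings the members called, of 41, were 11 with DESeq2 size factors (background 22.6%) and 13 with the DESeq2 Wald test (18.1%). They were 19 with limma on log2(CPM + 1) (34.6%) and 11 in libraries with at least 100000 counts (21%). With no filter on low counts they were 9 of 42 tested (30.2%). With a filter of 90% of a group's libraries they were 5 of 33 tested (26.7%), 3 of them lower in C10 (background 6.99%). The 6 called members kept their direction against 0 in all 12 alternatives, but the median of all genes moved as well. With a replicate block that median was 1.29. Relative to it Psma7 was at -0.09, Psmb3 at 0.02, Psmb7 at 0.04, Psmd11 at 0.31, Psmd7 at 0.54 and Psme1 at -2.58.

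The input series compares C10 libraries made from 1, 3 and 10 cells. No member was called by edgeR in 10 cells against 1 cell (0 of 41, background 10.7%), in 3 cells against 1 cell (0 of 41, background 6.35%) or in 10 cells against 3 cells (0 of 41, background 0%). At an unadjusted edgeR p under 0.05 there were 0, 1 and 0 of 41 members, against 2581, 2417 and 1346 of 13645 genes. The 1 member was Psme4 (log2 fold change 4.77, SE 1.90, edgeR adjusted p = 0.141). DESeq2 called 1, 1 and 0 members against backgrounds of 8.55%, 9.23% and 1.89% (Psma7, -1.49, adjusted p = 0.0489, and Psme4, 4.40, adjusted p = 0.0309), and limma called 1, 0 and 0 against 10.4%, 0.887% and 0.257% (Psmd8, 4.71, adjusted p = 0.0244). The highest 1-cell value of Psma7, 6031 CPM, was that of replicate 1. Without replicate 1 of the 1-cell libraries edgeR again called 0 members, with backgrounds of 2.46%, 0.235% and 0%. The median log2 fold change over members was -0.08, -0.18 and -0.17 in the 3 comparisons, against 0.36, 0.12 and 0.09 over all genes, and with library totals alone the values over members were 0.22, -0.03 and -0.04. The 3 comparisons share libraries. In libraries of 3 or 10 cells, fewer cells with a transcript and less of it per cell cannot be told apart.

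The spread between libraries was smaller with more cells for most members. The coefficient of variation was lower with 3 cells than with 1 cell for 39 of 41 members, lower with 10 than with 3 cells for 37 of 42, and lower with 10 cells than with 1 cell for 41 of 41, also without replicate 1. Psmb3 was among the 5 that were not lower with 10 than with 3 cells, at 651 to 851 CPM with 3 cells (10.0%) and 420 to 699 CPM with 10 cells (20.5%), beside Psma5, Psmc4, Psmd14 and Psmd2. Psmb6 was at 0, 514 and 901 CPM in the lowest, median and highest of the 1-cell libraries, at 445, 523 and 742 CPM with 3 cells and at 514, 539 and 615 CPM with 10 cells. All 10-cell values of Psmb6 therefore fell inside the range of the 3-cell and 1-cell values, with a coefficient of variation of 7.13%, the lowest of any member among the 10-cell libraries. Psmc2, an ATPase, ranged from 0 to 11996 CPM with 1 cell, from 271 to 520 with 3 cells and from 343 to 437 with 10 cells. Psmd4, the ubiquitin receptor of the cap, ranged from 2.32 to 556 CPM with 1 cell, from 141 to 404 with 3 cells and from 111 to 349 with 10 cells. Psme1 ranged from 0 to 230 CPM with 1 cell, 28.4 to 149 with 3 cells and 21.9 to 108 with 10 cells. Psme4 stayed scattered, with medians of 0.0995, 12.3 and 7.85 CPM and highest values of 6.10, 113 and 59.1 CPM in the 1-, 3- and 10-cell libraries.

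**Figure D5:**
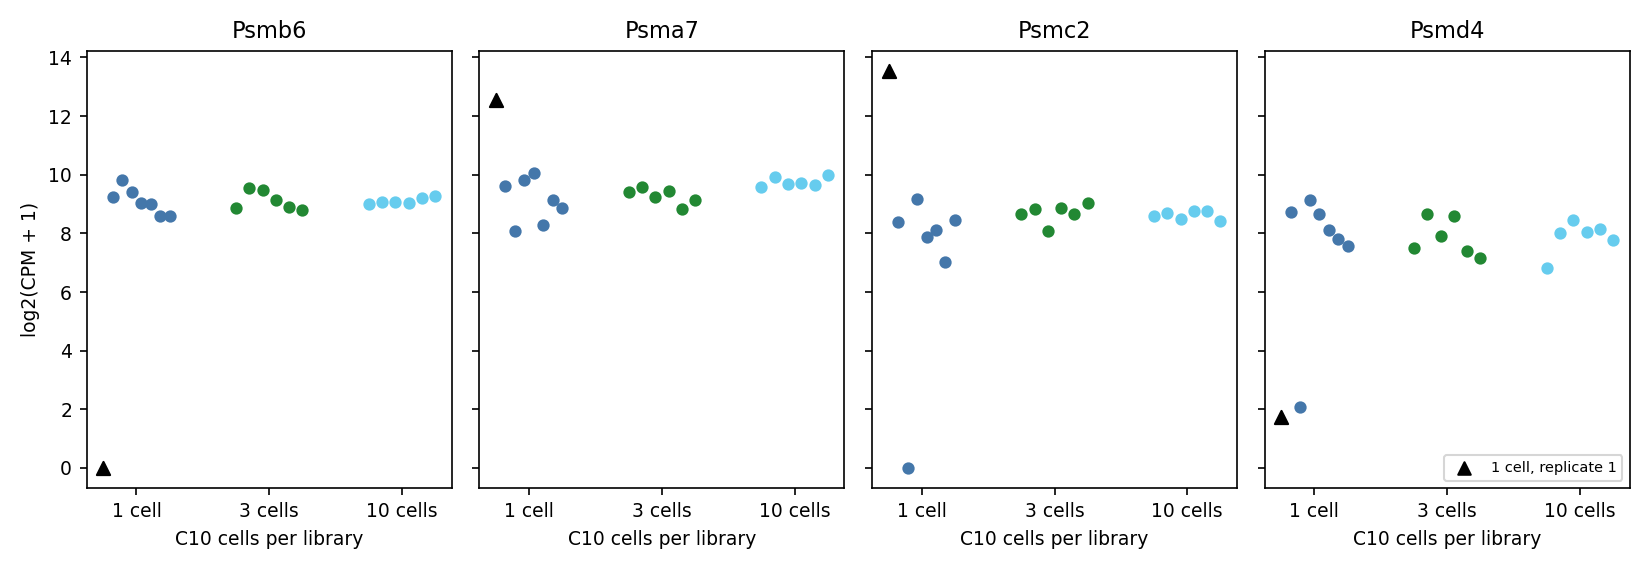
Levels of Psmb6, Psma7, Psmc2 and Psmd4 as log2(CPM + 1) in C10 libraries of 1, 3 and 10 cells, 1 point a library, with replicate 1 of the 1-cell group drawn as a triangle. The points lie closer together with 10 cells than with 1 cell, while Psmd4 spans a similar range with 3 and with 10 cells, and the triangle holds the highest Psma7 and Psmc2 and no Psmb6.

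The median coefficient of variation over members was 91.9% with 1 cell (77.1% without replicate 1), 43.2% with 3 cells and 25.2% with 10 cells, against 139%, 103% and 84.0% over all genes present in at least 50% of the same libraries. In single cells it was 56.4% in C10 and 87.7% in SVEC, against 119% and 131% over all genes. Members were therefore less spread than the median gene in each group, without a match for level. In C10 single cells the steadiest member was Psmb1, a structural beta subunit, at 25.5%, and in SVEC it was Psmb2 at 53.4%. The median pairwise Pearson r of members was 0.111 in C10 and 0.310 in SVEC single cells (all genes 0.0411 and 0.162), and 0.185 in SVEC libraries with at least 100000 counts. Values from 1 library share its depth and composition, and these correlations are a description only.

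The symbols that meet the rule without encoding subunits were sparse. Psmc3ip, a meiotic recombination factor, had counts in 18 of 46 C10 and 25 of 48 SVEC cells, with a log2 fold change of -0.62 (SE 0.76, edgeR adjusted p = 0.656). Psme3ip1, a binding partner of PA28 gamma, had counts in 33 of 46 and 25 of 48 cells and a log2 fold change of -0.17 (SE 0.65, edgeR adjusted p = 0.904). Both overlap other genes in the annotation, Mlx and Rspry1, as do Psmd10 (Atg4a), Psma3 (3110056K07Rik) and Psme4 (Erlec1), so reads of these members could be shared with a neighbour.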

How the data were processed

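Read counts per gene in 116 libraries were analysed as deposited, 1 file per library. STAR, HTSeq and FastQC are named in the submitters' processing notes, without versions, and the genome build, annotation and strand setting are not given in the sources used here. Full-length cDNA was sequenced as single reads without molecular identifiers, per the labels' protocols. Libraries under 1000 counts (2) were left out. All genes of the table were fitted in edgeR 4.0.16 by quasi-likelihood (R 4.3.3, TMM factors, Benjamini-Hochberg adjustment, threshold 0.05) after a detection filter of 25% of a single-cell group or 50% of an input group. Alternatives were DESeq2 1.42.0 and its size factors, limma 3.58.1 on log2(CPM + 1), library totals alone, other filters, a detection covariate, a replicate block and libraries left out. Levels per length used exon unions of GENCODE vM21. The tests were tested on simulated data. The members, the gene lists and the genes given with values (catalytic genes, activators, called members, the 3 highest and 3 lowest per length, members in under 5% of libraries and non-subunits) were chosen with earlier results of these data known. No pair of libraries was treated as a second deposit of the same library.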

Additional observations from a re-analysis of the deposited data

Results flagged for a closer look

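Of 36 groups of 4 to 10 libraries examined for a library far from the others, 4 had one. For independent groups chance gives about 1 in 20, or 1.8. Most of the 4 came from 1 library, replicate 1 of the 1-cell libraries, so the groups were not independent. The genes examined included Psmc2 and Psmd4, which lie outside the stated choice of genes given with values. The 1.8 therefore cannot show an excess. Replicate 1 of the 1-cell libraries had counts on 3 members, against 30 to 41 in the other libraries of 1 cell. In that library Psma7 stood at 6031 CPM, against 273 to 1057 in the others, and Psmc2 at 11996 CPM, against 0 to 572. These genes, an alpha subunit and an ATPase, made up 33.4% and 66.5% of the member counts there, in a library with 64.6% mitochondrial counts and counts on 538 genes. Psmb3, a beta subunit, was at 851 CPM in replicate 1 of the 3-cell libraries, against 651 to 709 CPM in the others.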

How the results depend on the processing

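The number of members called between C10 and SVEC was 6 of 41 (background 18.9%). It was 11 with DESeq2 size factors (22.6%), 13 with the DESeq2 Wald test (18.1%) and 19 with limma (34.6%). In libraries with at least 100000 counts it was 11 (21%), and without libraries over 25% mitochondrial counts 12 (22.5%). It was 3 with library totals alone (17.1%) and 2 with the detection covariate (14.4%). The 12, the values below without replicate 24, and members detected and spread without 1-cell replicate 1 come from alternatives chosen after seeing the data. Without C10 replicate 24 or SVEC replicate 24 the count was 8 or 7. The calls higher and lower in C10 were 10 and 1 with DESeq2 size factors and 2 and 1 with library totals, against 5 and 1, each of 41 members tested. With the 90% detection filter they were 2 and 3 of 33 tested. For all genes the same calls were 1337 and 417, against 920 and 670 with library totals. Partner genes called, 6 of 29 (background 18.9%), were 10 with DESeq2 size factors (22.6%) and 3 with library totals (17.1%). They were 17 with limma (34.6%) and 3 with the detection covariate (14.4%), each of 29. With the 90% filter 2 of 8 partner genes tested were called (25%, background 26.7%), and Psmb8 and Psmb9 were not among those tested. In 10 cells against 1 cell, DESeq2 called 1 member and 1 partner gene (background 8.55%) and limma 1 and 4 (10.4%), where edgeR called 0. In 3 cells against 1 cell, DESeq2 called 1 member (9.23%) and limma 2 partner genes (0.887%), where edgeR called 0. Genes of the whole table called in 10 cells against 1 cell were 1456, and 336 without 1-cell replicate 1, and for 3 cells against 1 cell 866 and 32. The member share in 10 cells minus that in 1 cell was -0.0999 percentage points and -0.511 off the mitochondrial genome, and without 1-cell replicate 1, the library with 64.6% mitochondrial counts, it was -0.0163 percentage points of all gene counts. The causes of these shifts were not tested.

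Same-numbered libraries were on average close to uncorrelated in their deviations from the group means. The mean correlation of same-numbered libraries was 0.00336 over 46 pairs of single cells. Of these pairs 1 was over 0.1, at 0.160, and 2 of 46 correlated best with their own number. In the input series it was -0.00357 for 10 cells against 1 cell, 0.0219 for 3 against 1 and 0.0162 for 10 against 3, with 1, 3 and 2 of 6 pairs best with their own number and 0 of 6 over 0.1 in each. With a replicate block, 17 of 41 members and 14 of 29 partner genes were called between the lines (background 34.5%, 3199 of 9273 genes). In each input comparison the block gave 0 members, and also 0 of all 13673 genes. The mitochondrial share was highest in replicate 1 of each input group (64.6%, 16.7% and 17.8% with 1, 3 and 10 cells). Among single cells it was highest in replicate 24 of both lines (30.9% and 27.5%). Whether libraries of the same number share a step of handling was not tested.

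Small changes turned sign. Psma6, -0.05, was 0.036 with DESeq2 size factors, 0.040 with the DESeq2 test, 0.030 with no filter, 0.17 with limma, 0.22 with the block, 0.17 in deep libraries and in those under 25% mitochondrial counts, and 0.021 without C10 replicate 24, but -0.040 without SVEC replicate 24. Psmb2 was -0.17 with library totals and the 90% filter and -0.33 with the detection covariate, and Psmb5 -0.28, -0.29 and -0.39. With limma Psme2 was 0.16, Psme3ip1 0.55 and Psme4 0.43. Psme3ip1 was 0.69 with the block, 0.027 in deep libraries and 0.18 under 25% mitochondrial counts, and Psme4 1.30 and 0.14 with the block and in deep libraries. Of the other single-gene values, 209 kept direction and call, 19 gained a call and 18 lost one. Members can be missed in shallow libraries, so their absence from a library was not shown. Low detection was not confined to the least depth. The shallowest SVEC library, replicate 9 with 5122 counts, held 24 members, while replicate 24 held 5 at 95959 counts and replicate 44 held 10 at 166762.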
